A study of Mus musculus with 12 samples.

Results

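The comparison described here sets 3 libraries titled knockout (KO) against 3 titled wild type (WT) in mTEC lo, the medullary thymic epithelial cells with low surface MHC class II. These are 6 of the 12 libraries of the series analysed here; the other 6 are from mTEC hi, the cells with high MHC class II. Each library holds polyadenylated RNA of primary cells from thymus of mice 6 to 8 weeks old, and all groups carry the strain name B6.B6CB-Psmb11tm1Smta. KO stands for Psmb11-/- and WT for Psmb11+/+; the labels do not say which bases the allele removes, nor whether different animals gave the libraries of a genotype. Genotype was taken from the title for all 6 libraries, although the source name and the strain contradict the title in number 1 of WT, which they call Psmb11-deficient, and in number 3 of KO, which they call WT. The libraries are called KO 1 to 3 and WT 1 to 3 after their titles. The p-values therefore measure only how far the libraries differ from each other, and that spread may be technical.

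Proteasomes cut cytosolic proteins into the peptides that MHC class I molecules display. Psmb11 encodes beta5t, a catalytic subunit that takes the place of Psmb5 or Psmb8 in the thymoproteasome of cortical thymic epithelial cells, where it shapes the peptides on which CD8 T cells are positively selected. mTEC lo are a mixture that includes immature mTECs, cells that secrete the chemokine Ccl21a, and cells past the Aire-expressing stage such as tuft cells.

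The 6 libraries held 57970614 to 68983619 reads assigned to genes, and each KO library held more (65438486 to 68983619) than each WT library (57970614 to 61914385). The epithelial marker Epcam ran from 707 to 868 CPM (reads of a gene per 1000000 gene reads, scaled between libraries by TMM), Krt5 from 3645 to 4518 CPM and Ccl21a from 2931 to 4115 CPM, while Aire ran from 10.2 to 23.4 CPM. Library KO 2 stood apart in 8 genes of at least 5 CPM that were at least 5 times the next library, among them Sparcl1 (747 CPM against at most 16.9 elsewhere) and the bone matrix gene Dmp1 (109 CPM against at most 0.17). KO 3 had 2 such genes, Igha and Ighv6-4, both of immunoglobulins, and the other 4 libraries had 0.

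Psmb11 itself was lower in KO than in WT mTEC lo, and it was the 1 gene of 20356 tested (0.00491%) that passed the threshold, an adjusted p under 0.05. It was measured at 1.48, 1.07 and 1.12 CPM in KO 1 to 3 and at 6.37, 11.02 and 6.93 CPM in WT 1 to 3. Those levels rest on 105, 68 and 73 reads in KO and on 377, 683 and 414 reads in WT, so all 3 KO libraries lay far below all 3 WT libraries and none was empty. By these levels WT 1 sat with the other WT titles and KO 3 with the other KO titles. Psmb11 fell 6.63-fold, from 8.11 ± 2.53 to 1.22 ± 0.225 CPM (mean ± SD, n = 3 each), with a log2 difference of -2.72 (SE 0.23) and an adjusted p of 0.00201 in the quasi-likelihood test of edgeR. When genotype was read from the source name and strain instead, the log2 difference of Psmb11 was -1.10 with an edgeR adjusted p of 1; in the 4 libraries whose labels do not conflict it was -2.81, with an adjusted p of 0.0271. Psmb11 lies on chr14:54621433-54629556 (GRCm38, GENCODE M21). The deposited count is a sum over the gene, so where within it the KO reads lie was not tested.

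Beyond Psmb11 no gene passed the edgeR test, and 2562 genes (12.6%) had an unadjusted p under 0.05, 1335 of them lower (6.56%) and 1227 higher (6.03%) in KO. For reading the gene groups below, all 3 KO libraries lay below all 3 WT libraries in 9.19% of the genes tested and above them in 10.2%. The fitted difference was below 0 in 50.1% of them. DESeq2, run as an alternative, called 267 genes, 90 higher and 177 lower. Since no member of any list other than Psmb11 passed the test, the values that follow are levels and differences, not calls.

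**Figure D1:**
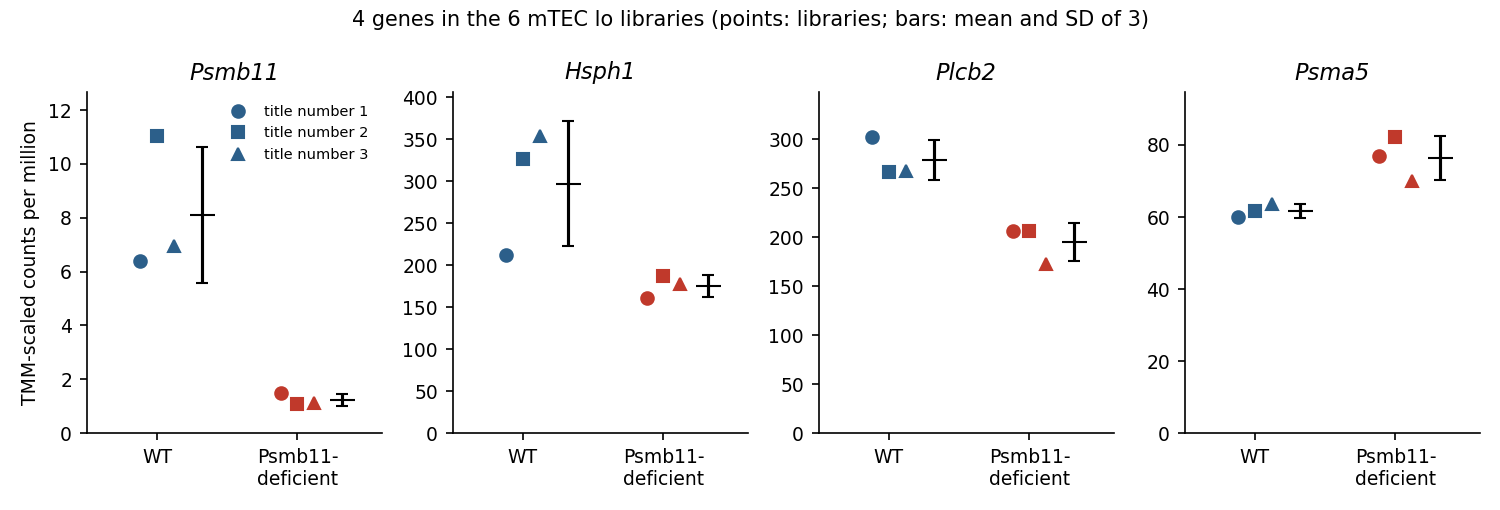
TMM-scaled CPM of Psmb11, Hsph1, Plcb2 and Psma5 (y axes from 0) in the 3 WT (blue) and 3 Psmb11-deficient (red) mTEC lo libraries, with the marker shape giving the title number and the black bars the mean and SD of 3. Psmb11 sits at 1.07 to 1.48 CPM in the deficient libraries and at 6.37 to 11.02 CPM in WT, and in Hsph1 the WT library of number 1 (212 CPM) lies nearest to the deficient ones.

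Hsph1 encodes HSP110, a nucleotide exchange factor that works with HSP70 chaperones to pull apart protein aggregates. It was at 161, 187 and 178 CPM in KO 1 to 3 and at 212, 326 and 353 CPM in WT 1 to 3. The groups did not overlap, and WT 1, whose source name says Psmb11-deficient, lay between the KO libraries and the other WT libraries. The means were 175 ± 13.2 and 297 ± 74.9 CPM (SD, n = 3 each). The log2 difference was -0.76 (SE 0.15), with an unadjusted p of 0.00035 and an edgeR adjusted p of 0.227, so Hsph1 did not pass. Without WT 1 the log2 difference was -0.96 and the edgeR adjusted p 0.00739; without WT 3 they were -0.62 and 0.47. Over 18 alternative settings the log2 difference ran from -0.96 to -0.61 and passed in 6.

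Heat shock genes are switched on by the factor Hsf1, which binds inverted repeats of the bases NGAAN. Promoter windows from RefSeq (GRCm38.p6, 250 bases before to 50 after a gene's start) were searched for GAANNTTC and TTCNNGAA, each its own reverse complement, so that 1 pass covers both strands; the motifs can overlap each other. Of the 30 heat shock genes 23 had a window, and 13 of the 23 (56.5%) held either motif, against 14.3% of the 13593 tested genes with a window and 15.1% of all 32851 windows. The windows below show 30 bases, 5′ to 3′ on the gene's strand, with a motif in capitals, for Hsph1 and the other genes whose KO libraries all lay below WT. Hspd1 and Fkbp4, which hold a motif at differences near 0, and Dnajb6, whose KO libraries all lay above WT, are shown for contrast. Capitals mark 1 match in each. The windows of Hspd1 and Dnajb6 hold further matches that overlap the marked one or lie beside it and have no capitals of their own.
Hsph1, chr5:149636351-149636380, minus strand: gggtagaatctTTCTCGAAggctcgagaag
Hspa1b, chr17:34959324-34959353, minus strand: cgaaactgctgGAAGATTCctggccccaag
Dnaja1, chr4:40722333-40722362, plus strand: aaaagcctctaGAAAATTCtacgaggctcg
Bag3, chr7:128523603-128523632, plus strand: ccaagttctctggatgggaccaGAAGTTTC
Hspd1, chr1:55088048-55088077, minus strand: cttccggaaggTTCTAGAAcggaccgtggc
Fkbp4, chr6:128438789-128438818, minus strand: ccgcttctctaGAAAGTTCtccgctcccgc
Dnajb6, chr5:29735841-29735870, plus strand: ctcagctccgaGAATCTTCcggaacgctag
A match of letters describes the window and does not show that a factor binds there.

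The genes with these windows lay on both sides of 0. Hspa1b, an inducible HSP70, was at 1068, 1041 and 1118 CPM in KO and at 1148, 1550 and 1525 CPM in WT, a log2 difference of -0.39 (unadjusted p 0.0054). Its neighbour Hspa1a, a near-identical copy with the same printed window, was at 506 to 513 CPM in KO and at 483, 673 and 659 CPM in WT (log2 difference -0.25). Reads that match both copies count as multimapping and stay out of these levels, so both values are uncertain. Dnaja1, a DnaJ cochaperone that hands clients to HSP70, was at 265 to 271 CPM in KO and at 290, 346 and 405 CPM in WT (-0.37). Bag3, a cochaperone that links HSP70 to the autophagy of aggregates, was at 103 to 113 CPM in KO and at 113, 134 and 135 CPM in WT (-0.23). In all 4 of these genes WT 1 was the lowest WT library and lay nearest to KO. Hspd1, the mitochondrial HSP60, differed by -0.01 and Fkbp4, an HSP90 cochaperone, by 0.05.

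All 30 heat shock genes on the list passed the filter on low counts. KO was above WT in 12 and below in 18, with a median log2 difference of -0.03. The KO libraries lay wholly below WT in 4, Hsph1, Hspa1b, Dnaja1 and Bag3 (13.3%, against 9.19% of all genes). They lay wholly above in 1, Dnajb6 at 0.12 (3.33%, against 10.2%). The HSP70 and HSP110 chaperones had a median of -0.09, the DnaJ cochaperones of -0.16, and the HSP90 machinery of -0.01. Dnajb1, which stimulates HSP70, was at 624, 665 and 635 CPM in KO and at 639, 881 and 887 CPM in WT (-0.32), and Hsp90aa1, the inducible HSP90, differed by -0.26. Hspa8, the constitutive HSP70, differed by -0.16, Hsp90ab1 by -0.02 and Hspe1, the partner of Hspd1, by 0.04. The factors themselves differed by -0.09 (Hsf1) and -0.18 (Hsf2).

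Single libraries moved this list. KO 1 was the lowest of the 6 libraries in 14 of 30 heat shock genes and WT 1 in 10, while KO 2 and WT 3 were each the highest in 13. WT 1 was below both other WT libraries in 28 of 30, and in 25 of 30 it was at or below the highest KO library. The list's median turned above 0 without KO 1 (0.04, 14 of 30 below WT) and without WT 3 (0.01, 15 of 30 below). It was -0.10 without KO 2 and -0.09 without WT 1, each with 22 of 30 below. With the length trend taken out the median was -0.08 (22 of 30 below). In the 4 libraries without a label conflict it was -0.10 (21 of 30), and by source name and strain -0.09 (24 of 30). The part of single libraries in the differences was not tested.

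**Figure D2:**
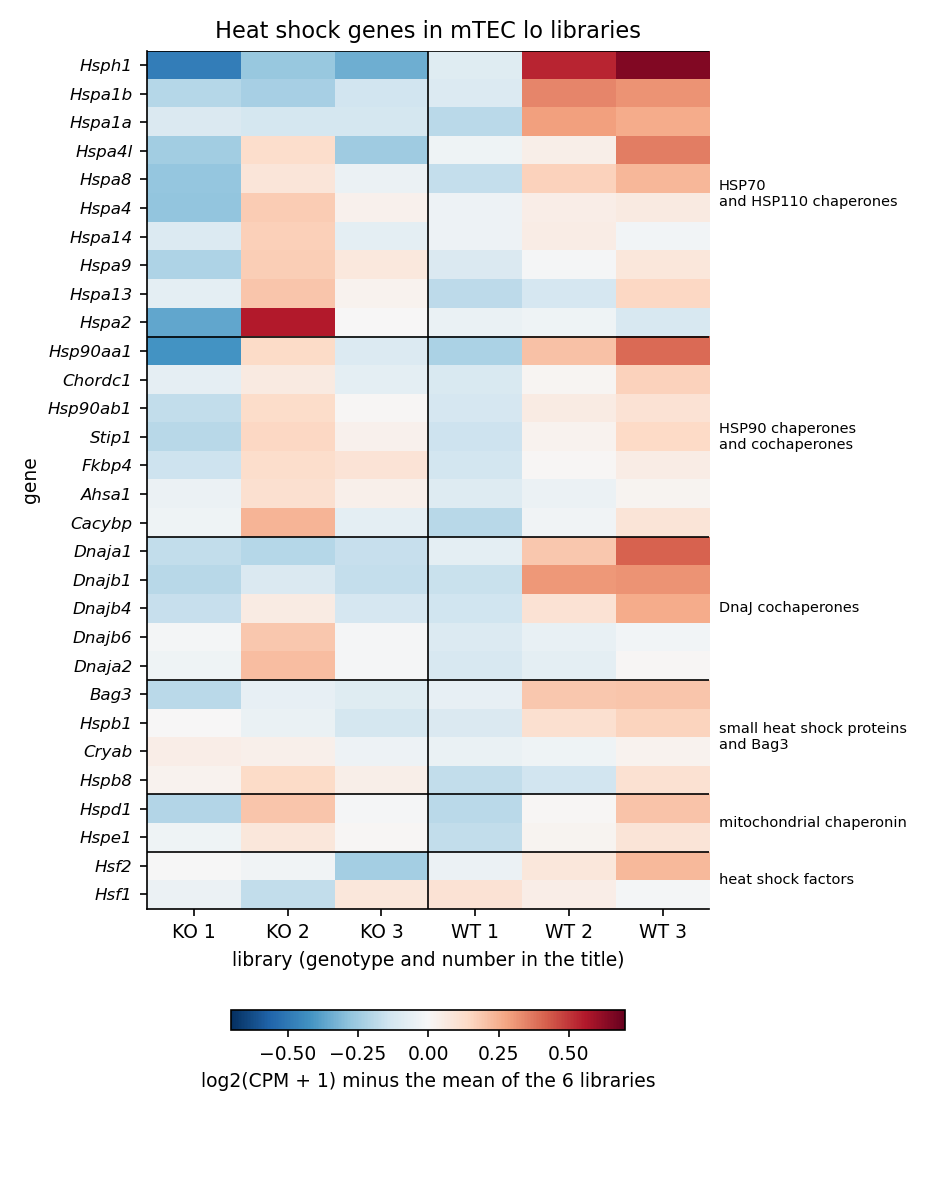
Log2(CPM + 1) of 30 heat shock genes in each mTEC lo library (columns), minus the gene's mean over the 6 libraries (red above, blue below), with genes grouped by role. Hsph1, Hspa1b, Dnaja1 and Dnajb1 are high in WT 2 and WT 3, and the column of WT 1 is pale or blue in most rows.

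The other catalytic subunits were far more abundant than Psmb11 and differed little. Per length, WT mTEC lo held 2.81 ± 0.745 TPM (transcripts of a gene per 1000000 transcripts) of Psmb11 and 119 ± 6.04 TPM of Psmb5, the subunit it replaces, 42.4 times as much (SD, n = 3). Psmb8 stood at 218 TPM, Psmb10 at 199 and Psmb9 at 166 TPM in WT; these are the immunoproteasome subunits that interferon induces. Psmb6 was at 215 TPM and Psmb7, the trypsin-like subunit, at 119 TPM. In KO, Psmb5 was at 30.7, 36.3 and 33.2 CPM against 29.9, 29.5 and 28.3 CPM in WT, and the groups did not overlap (log2 difference 0.19). Psmb7 (0.20), Psmb8 (0.10) and Psmb9 (0.12) were also above WT without overlap, while Psmb6 (0.13) and Psmb10 (0.07) overlapped. Per length the direction was the other way for Psmb8 (211 TPM in KO, 218 in WT) and Psmb10 (197 and 199 TPM), and Psmb8 and Psmb9 overlapped. Neither Psmb5 nor Psmb8 nor any other catalytic subunit besides Psmb11 passed the test.

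The whole 26S proteasome showed the same small difference in 1 direction. All 32 constitutive subunits were measured and all 32 were above WT in KO, 20 of them without overlap (62.5%, against 10.2% of all genes), with a median log2 difference of 0.13 and a range of 0.05 to 0.31. None of the 32 passed. The alpha ring, which gates the core, had a median of 0.19, the beta ring, which holds the active sites, of 0.19, the ATPases that unfold substrates of 0.12, and the other regulatory subunits of 0.09. Psma5 was at 76.9, 82.3 and 69.9 CPM in KO and at 59.9, 61.6 and 63.7 CPM in WT (0.31, edgeR adjusted p 0.23), the lowest p of the list. Psmb3 differed by 0.23, Psmc1 by 0.14 and Psmd12 by 0.14. Per length Psma5 did not overlap, at 102 to 112 TPM in KO and 93.8 to 96.5 TPM in WT. Psmb3, Psmc1 (mean 97.4 TPM in KO, 96.5 in WT) and Psmd12 (54.5 and 53.6 TPM) did. Of the 14 measured assembly factors and activators, 12 were above WT, 6 without overlap (42.9%, against 10.2% of all genes). Their median was 0.14, or 0.05 with the length trend taken out. They include Pomp, which helps beta subunits join (0.20), and Psme2 of the interferon-induced PA28 activator (0.22). The factor that restores proteasome genes after inhibition, Nfe2l1, differed by -0.01.

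Other short messenger RNAs lay on the same side of WT. Over protein-coding genes of at least 2 CPM, the median log2 difference was 0.10 in the quartile of shortest exonic length (323 to 2915 bases), 0.04 and -0.005 in the middle quartiles, and -0.07 in the longest (7007 to 123179 bases). In the shortest quartile 76.9% of genes were above WT. Without overlap 27.0% were above and 2.47% below. In the longest quartile 28.8% were above WT, and the shares without overlap were 3.83% above and 19.9% below. The 32 proteasome subunits had a median exonic length of 2814 bases, within the range of the shortest quartile. Ribosomal protein genes, a list added after values were seen, were above WT in 79 of 81, 57 without overlap (70.4%, against 10.2% of all genes). Their median was 0.22, or 0.13 with the length trend taken out, and the exceptions were Rpl24 and Rpl32l. Respiratory chain genes, added in the same way, were above in 73 of 74, 40 without overlap (54.1%, against 10.2% of all genes). Their median was 0.16, or 0.06 with the length trend taken out. With the trend on length taken out, the proteasome median was 0.07 and 29 of 32 subunits were above WT; by source name and strain it was 0.06, with 30 of 32 above. KO 2 was the highest library in 27 of the 32. Reads assigned to no annotated feature made up 9.83, 7.42 and 8.81% of all reads in KO and 11.1, 10.02 and 10.8% in WT, without overlap (exact two-sided permutation test, p = 0.1, the smallest that 3 against 3 allows). The part of transcript length, reads outside annotated features or depth in the proteasome values was not tested beyond these numbers.

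**Figure D3:**
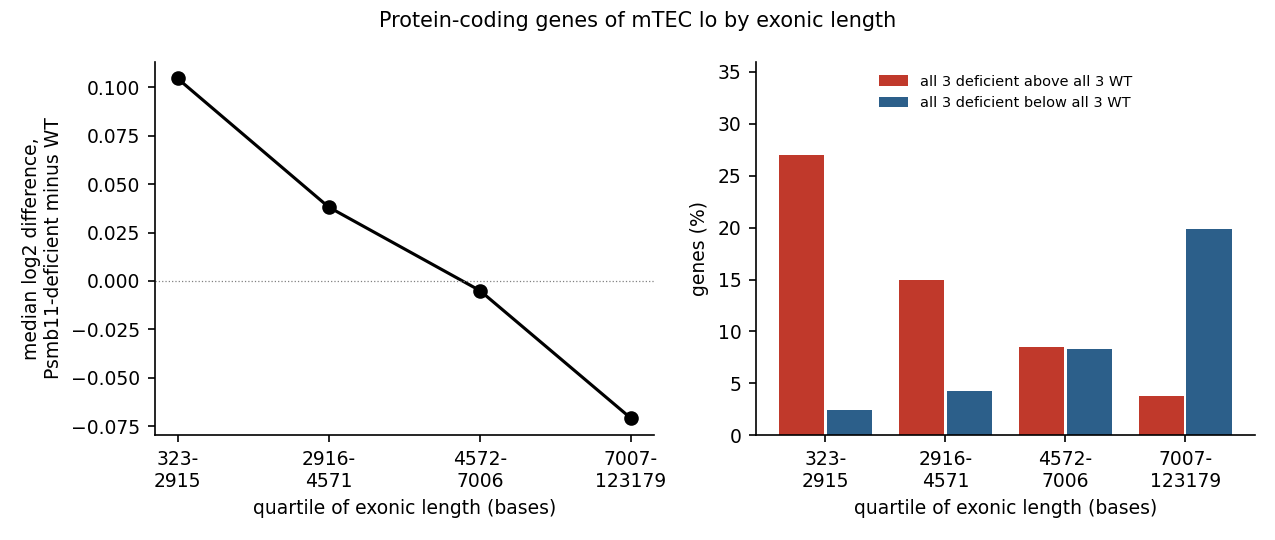
Protein-coding genes of mTEC lo in quartiles of exonic length: the left panel gives the median log2 difference of Psmb11-deficient minus WT, and the right panel the percent of genes whose 3 deficient libraries lie all above (red) or all below (blue) the 3 WT libraries. The median runs from 0.10 in the shortest quartile to -0.07 in the longest, and the red bars shrink from 27.0% to 3.83% as the blue bars grow from 2.47% to 19.9%.

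Long nuclear RNAs sat at the other end. Malat1, an abundant RNA of nuclear speckles, was at 700, 614 and 617 CPM in KO and at 816, 881 and 838 CPM in WT (log2 difference -0.39). Xist, which coats the inactive X chromosome, was at 555, 524 and 725 CPM in KO and at 747, 920 and 820 CPM in WT (-0.46, edgeR adjusted p 0.249), while the Y-linked genes Ddx3y, Uty, Eif2s3y and Kdm5d were present in every library at 11.1 to 52.8 CPM and overlapped. Snhg11 (-0.63) and Kcnq1ot1 (-0.46) were also below WT without overlap, while Neat1, the scaffold of paraspeckles (-0.36), and Meg3 (0.20) overlapped. These 6 RNAs were picked as a group after values were seen, and Xist was also the gene of lowest p of the sex-linked list.

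Antigen presentation differed little and mostly in 1 direction. MHC class II genes, which define the mTEC lo gate by their low protein, were abundant in RNA: H2-Aa ran from 1727 to 2094 CPM and Cd74, the invariant chain, from 4191 to 4771 CPM. Of 10 genes 8 were above WT in KO, with a median of 0.11, and 6 did not overlap (60%, against 10.2% of all genes). H2-DMb1, a peptide editor, was at 99.3, 98.5 and 93.9 CPM against 80.0, 85.7 and 90.6 CPM (0.19). The master regulator Ciita differed by -0.10. The MHC class II median was 0.02 with the length trend taken out (6 of 10 above), and by source name and strain 5 of 10 were above. Per length, H2-DMb1 overlapped, at 133 to 142 TPM in KO and 128 to 135 TPM in WT. In class I presentation, B2m, the light chain, was above WT at 0.25 and H2-K1 and H2-D1 at 0.12 each, without overlap. Nlrc5, the regulator of class I genes, lay below instead, at 184, 161 and 201 CPM in KO and at 228, 213 and 211 CPM in WT (-0.25, edgeR adjusted p 0.303). The peptide transporters Tap1 (-0.05) and Tap2 (-0.04) overlapped. The list of class I and immunoproteasome genes had a median of 0.10, or 0.05 with the length trend taken out and -0.03 by source name and strain.

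Interferon response genes were above WT in 11 of 13 (median 0.13), 3 without overlap (23.1%, against 10.2% of all genes). Their median was 0.04 with the length trend taken out and 0.07 without WT 1 or KO 2. It was 0.002 by source name and strain (7 of 13 above). Bst2, which tethers budding virus, was the one of lowest p, at 191, 209 and 199 CPM in KO and at 158, 155 and 169 CPM in WT (0.31). Among chemokines, 9 of 12 measured genes were above WT (median 0.15, or 0.06 with the length trend taken out). Of these, 3 did not overlap (25%, against 10.2% of all genes). Ccl22, which attracts Ccr4-bearing cells, was at 5.46, 4.21 and 4.66 CPM in KO and at 2.20, 3.27 and 2.63 CPM in WT (0.82, edgeR adjusted p 0.227), and Cxcl12, the ligand of Cxcr4, differed by 0.25. Ccl21a, which draws positively selected thymocytes to the medulla, overlapped at 3115, 4115 and 3772 CPM against 2931, 3315 and 3481 CPM (0.18).

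**Figure D4:**
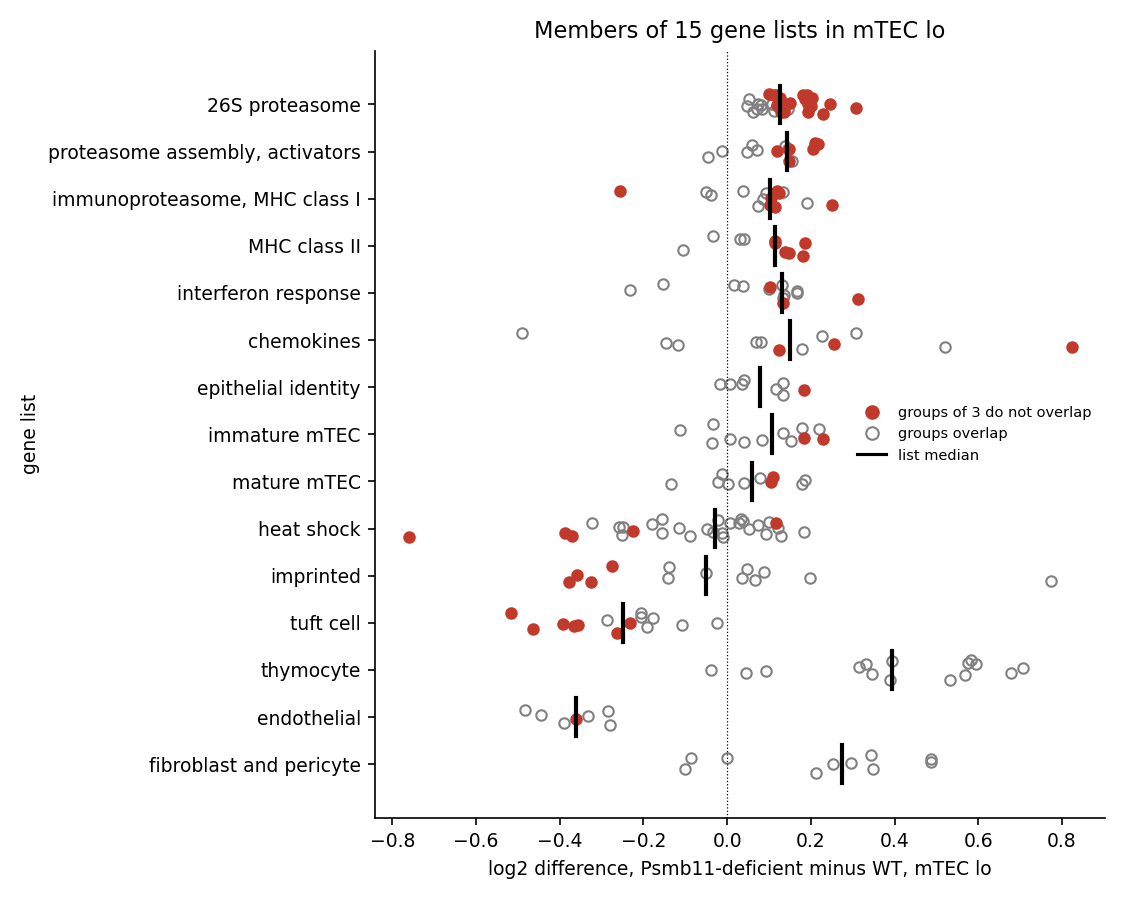
Log2 differences (x axis) of the measured members of 15 gene lists (rows), Psmb11-deficient minus WT in mTEC lo; filled points are genes whose groups of 3 do not overlap, open points those that do, and black bars list medians. The 26S proteasome lies wholly to the right of 0 (median 0.13), the tuft cell list wholly to the left (median -0.25), and heat shock genes spread around 0 with Hsph1 at -0.76.

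Tuft cell genes were below WT in KO. Thymic tuft cells are chemosensory epithelial cells that use taste signalling and make interleukin 25; the factor Pou2f3 is required for them. All 14 listed genes were measured and all 14 were below WT, 7 of them without overlap (50%, against 9.19% of all genes), with a median log2 difference of -0.25. Plcb2, the phospholipase downstream of taste receptors, was at 207, 206 and 172 CPM in KO and at 303, 267 and 268 CPM in WT (-0.52, unadjusted p 0.00012, edgeR adjusted p 0.211). Trpm5, the cation channel that follows it, was at 456, 448 and 356 CPM against 569, 529 and 525 CPM (-0.37). Chat, which makes acetylcholine, differed by -0.46, the interleukin 25 receptor chain Il17rb by -0.39 and Avil by -0.36, each without overlap. Pou2f3 (-0.21), Dclk1 (-0.21) and Il25 (-0.29) overlapped. In bulk RNA, fewer cells of a type and less RNA per cell cannot be told apart.

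Library KO 3 was the lowest of the 6 in all 14 tuft cell genes. The summed list stood at 2213, 2106 and 1617 CPM in KO 1 to 3 and at 2504, 2407 and 2462 CPM in WT 1 to 3, so KO 1 and KO 2 were also below every WT library. Without KO 3 the median was -0.12 with 11 of 14 below WT. When genotype was read from the source name and strain the median was 0.08, on the other side of 0. In the 4 libraries without a conflict it was -0.12, and with the length trend taken out -0.33.

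Taste receptor genes of the Tas1r and Tas2r families, a list added after values were seen, lay in the same direction. Of 36 measured genes 35 were below WT, with a median of -0.53, and 17 did not overlap (47.2%, against 9.19% of all genes). Tas1r3, a subunit of the sweet and umami receptors, was at 15.6, 14.1 and 14.0 CPM in KO and at 24.3, 19.5 and 18.5 CPM in WT (-0.51). The bitter receptor Tas2r113 was at 5.32, 6.07 and 4.69 CPM against 8.96, 7.13 and 9.21 CPM (-0.65), and Tas2r110 at 1.55, 1.56 and 1.53 CPM against 2.55, 2.56 and 3.75 CPM (-0.93). Without KO 3 the median was -0.47 with 34 of 36 below WT, and by source name it was -0.04.

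**Figure D5:**
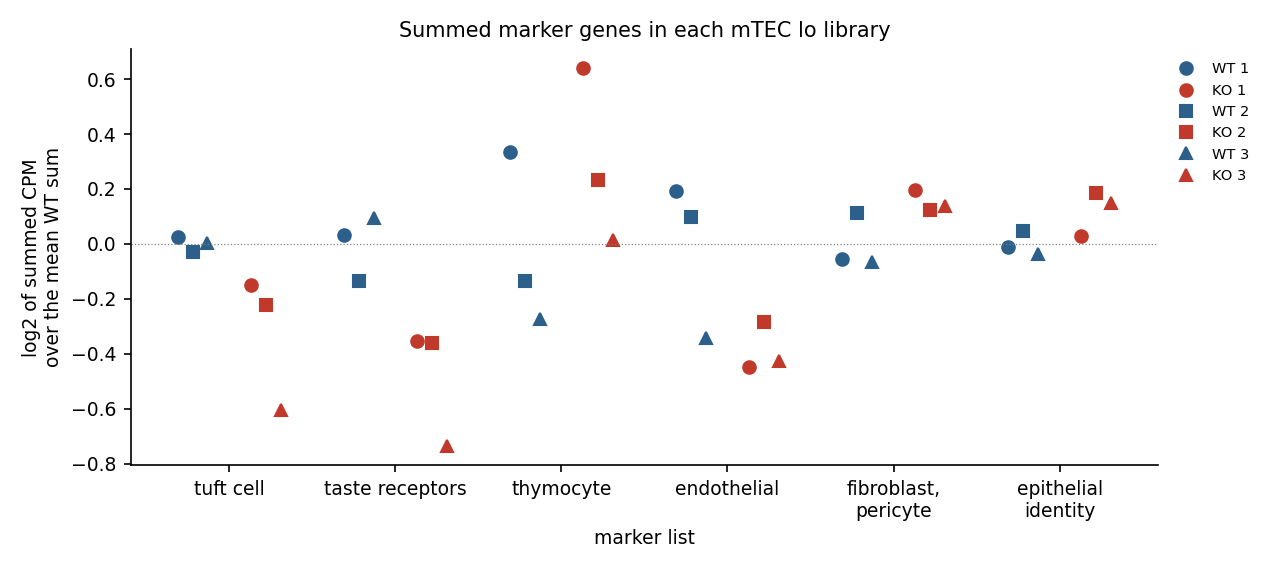
Summed CPM of 6 marker lists in each mTEC lo library, as log2 over the mean of the 3 WT sums (blue WT, red Psmb11-deficient, marker shape by title number). The tuft cell sums of KO 1 to 3 lie at -0.15, -0.22 and -0.60, with KO 3 the lowest, and the thymocyte sums are highest in KO 1 (0.64).

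Epithelial identity and maturation genes differed by small amounts. Of 8 epithelial genes 7 were above WT (median 0.08, with 4 of 8 above once the length trend was taken out). Krt5 at 0.18 was the 1 without overlap (12.5%, against 10.2% of all genes). Per length Krt5 overlapped, at 3358 to 3679 TPM in KO and 3086 to 3431 TPM in WT. In the immature mTEC list 9 of 12 were above WT (median 0.11, or -0.03 by source name and strain). Without overlap were Pdpn, a membrane glycoprotein of stroma and immature mTECs, at 0.23 and Krt5 (16.7%, against 10.2% of all genes). Among 10 genes of mature mTECs the median was 0.06: Aire, the regulator of tissue antigens, overlapped at 16.9, 11.5 and 17.1 CPM against 23.4, 16.2 and 10.2 CPM, and Fezf2 differed by 0.04. Of 12 Aire-dependent antigens listed, 5 passed the filter on low counts, and 7 had too few reads or no match. In the cortical list 9 of 16 genes were above WT (median 0.04, or -0.05 with the length trend taken out), none without overlap below WT; Prss16, the thymus-specific serine protease, overlapped at 47.4, 61.4 and 51.4 CPM against 47.9, 71.8 and 55.1 CPM.

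Stress lists held few genes without overlap, while the imprinted growth list held 4 below WT. NRF2 and oxidative stress genes were above WT in 10 of 12 (median 0.10). Without overlap, 2 were above (16.7%, against 10.2% of all genes) and 1 below (8.33%, against 9.19%). Prdx1, a peroxiredoxin, was at 236, 266 and 224 CPM in KO and 181, 197 and 206 CPM in WT (0.31). ER stress genes (median 0.02) held 1 gene without overlap, Ddit3 at -0.13 (7.69% below, against 9.19%). Immediate early genes (median 0.06) held 0. Among imprinted growth genes 7 of 13 were below WT and 4 did not overlap (30.8%, against 9.19% of all genes), with a median of -0.05 that was 0.05 without WT 2. Grb10, an adaptor that restrains insulin signalling, was at 58.0, 53.9 and 63.0 CPM in KO and at 76.6, 71.5 and 79.3 CPM in WT (-0.38, edgeR adjusted p 0.227), and Plagl1, a zinc finger factor, differed by -0.36. The other pair were Peg3 (-0.28) and Gnas (-0.33); Gnas lies among overlapping transcripts, and at 10.1 to 15.6 CPM in the read counts but a mean of 651 TPM in WT its value is uncertain.

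Other cell types left small and uneven traces. Thymocyte genes were above WT in 14 of 15 (median 0.39) with 0 free of overlap, and their summed level was 149, 113 and 97 CPM in KO 1 to 3 and 121, 87 and 79 CPM in WT 1 to 3. The thymocyte median was 0.09 without KO 1, 0.67 without KO 3, 0.70 without WT 1 and 0.89 in the 4 libraries without a label conflict. Cd4 was at 7.72, 7.04 and 6.13 CPM against 6.70, 4.52 and 2.75 CPM. Endothelial genes were below WT in 7 of 7 (median -0.36), and Tek was the 1 without overlap (14.3%, against 9.19% of all genes). Vwf, a clotting factor carrier, was at 23.4, 23.6 and 28.6 CPM against 41.1, 36.9 and 24.9 CPM. By source name and strain the endothelial median was 0.02, with 5 of 7 above WT. Fibroblast and pericyte genes were above WT in 8 of 10 (median 0.27, or 0.03 by source name and strain), none without overlap. No gene of these lists passed the test, and their part in the other differences was not tested.

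Outside the lists, the genes of lowest p are given as values, since none but Psmb11 passed the reported edgeR test. Above WT without overlap were Slc6a2, the noradrenaline transporter, at 23.7, 23.4 and 28.6 CPM in KO and 15.7, 16.9 and 16.9 CPM in WT (0.62), Timp1, an inhibitor of matrix proteases (0.53), and Gstm2, a glutathione transferase (0.58). Map3k7cl (0.39), Ces1b (0.44), Snrpe (0.42), Cd302 (0.53) and Vsnl1 (0.40) completed those 8. Below WT were Gdap10, at 14.8, 13.2 and 18.2 CPM in KO and 24.3, 25.98 and 28.5 CPM in WT (-0.77), Osr2, a zinc finger factor (-0.63), and Adcy5, an adenylyl cyclase (-0.49). Adgrb2 (-0.51) and Dmxl2 (-0.42) stood beside Plcb2 and Psmb11 itself. Apart from Psmb11, their edgeR adjusted p-values ran from 0.165 to 0.227.

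Genes around Psmb11 on chromosome 14 were examined because a targeted allele carries its neighbourhood with it. Of 148 tested genes that start within 5 Mb, 80 were above and 68 below WT, 17 and 11 without overlap (11.5% and 7.43%, against 10.2% and 9.19% of all genes), and the median was 0.01. Psmb5, which starts 7.3 kb away, is described above. The activator genes Psme1 and Psme2 start 957 and 966 kb away and were also above WT without overlap (0.15 and 0.22). Lowest in p were Tep1 (-0.26), Khnyn (-0.25) and Abhd4 (0.20), none of which passed.

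The difference between genotypes was set against that in mTEC hi in a fit of all 12 libraries, with genotype again taken from the title. In mTEC hi, too, the source name and the strain contradict the title in WT 1 and KO 3. No gene of 26372 passed the edgeR test of the difference between the cell types, 1411 (5.35%) had an unadjusted p under 0.05, and DESeq2 called 3 (Pappa2, Retnlg and Fabp6). Psmb11 was lower by -3.00 on the log2 scale in mTEC hi, where it was the 1 gene called (0.00379%). Hsph1 differed by -0.30 in mTEC hi against -0.76 in mTEC lo (unadjusted p 0.053 for that difference, edgeR adjusted p 0.929). Per length, Hsph1 was at 130, 171 and 181 TPM in KO and at 181, 246 and 243 TPM in WT mTEC hi, and at 97.5, 103 and 97.8 TPM against 133, 214 and 203 TPM in mTEC lo. In both cell types WT 1 was the lowest WT library. In mTEC hi the proteasome was above WT in 31 of 32 subunits (median 0.06), tuft cell genes were below in 12 of 14 (median -0.24), and taste receptor genes below in 33 of 36 (median -0.45).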

How the data were processed

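RNA of sorted mTEC lo was sequenced in 3 KO and 3 WT libraries. Reads were processed by the submitters with CASAVA 1.8.2, STAR 2.5.1b and RSEM 1.2.28, per the submitters' processing notes, which name the build GRCh38 although the deposited identifiers are of mouse. The deposited read counts are whole-number counts per gene, and the column that ignores strand was used; sense and antisense overlaps are therefore not separated. The 4 summary rows that name no gene (no feature 7.42 to 11.1%, multimapping 6.91 to 8.50%, ambiguous 3.71 to 4.16% and unmapped 1.59 to 2.35% of all reads) stayed out of library sizes and tests. The authors' second deposited table gives RSEM expected counts, rounded here for 1 alternative, and TPM, used for levels between genes.

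Counts were fitted with edgeR 4.0.16 in R 4.3.3 (filterByExpr with a count minimum of 10 and a total minimum of 15, TMM, quasi-likelihood test, Benjamini-Hochberg adjustment over all 20356 genes kept, 4 residual degrees of freedom), without the title number as a block. The test was checked on simulated data. The differences between cell types come from 1 fit of 12 libraries. Alternatives were DESeq2 1.42.0, other scalings, no filter, RSEM counts, the title number as a block, each library left out, and genotype by the other labels. Of 50600 identifiers 50376 matched GENCODE M21. Of 361 listed genes 347 were tested. Genes were named when called with or without the block, or as the 8 of lowest p in each direction without overlap (mean of at least 2 CPM, predicted genes left out); to these came the gene of lowest p of each role of a list, the heat shock genes, the catalytic subunits and the 3 neighbours of lowest p. Members shown for their level or role beyond this rule (Epcam, Ccl21a, Cd74, Malat1, Prss16, Tas1r3, Tas2r110 and others) were chosen after their values were seen. Not every gene that this rule names is reported here. Members and lists were chosen with earlier results of these data known. A pair of libraries with counts alike within sampling noise was looked for, and the lowest chi-square per gene was 12.4. Depth was 57970614 to 68983619 gene reads, so precision is limited by the 3 libraries a group rather than by counting for all but genes of few reads.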

Additional observations from a re-analysis of the deposited data

Results flagged for a closer look

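Psmb11 and the 91 other named genes were screened for groups without overlap in opposite directions in the 2 cell types. This flagged H2-DMb1, the beta chain of a peptide editor of MHC class II, named for its low p in mTEC lo. In mTEC lo alone, 10.2% of all genes lay above WT without overlap and 9.19% below. How many flags such a screen gives by chance was not tested. In mTEC lo every KO library (102, 95.4 and 92.0 reads per 1000000 gene reads) lay above every WT library (81.6, 85.8 and 90.7). In mTEC hi every KO library (162, 163 and 145) lay below every WT library (165, 167 and 171). The log2 difference in mTEC hi was -0.09, with an unadjusted p of 0.17 and an edgeR adjusted p of 0.999, so it did not pass. Genotype here is that of the title, which the other labels of WT 1 and KO 3 contradict in both cell types. The log2 difference in mTEC lo minus that in mTEC hi was 0.29, with an unadjusted p of 0.0077 and an edgeR adjusted p of 0.858 for the interaction, so it did not pass. Per length, the RSEM values overlapped in both cell types, at 142, 135 and 133 TPM in KO and 135, 128 and 133 TPM in WT mTEC lo, and at 237, 247 and 230 TPM in KO and 241, 242 and 251 TPM in WT mTEC hi.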

How the results depend on the processing

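The number of genes called in mTEC lo was 1 as reported and also 1 with RLE size factors, library-size scaling, RSEM expected counts, the 4 libraries without a label conflict, or the length trend taken out. It was 267 with DESeq2 (4747 adjusted p-values were NA), 593 without a filter on low counts (62 of them with 1 library at least 5 times the next), 3 in the fit of 12 libraries (Psmb11, Pappa2 and Fabp6), and 0 with genotype from source name and strain (574 at an unadjusted p under 0.05). Leaving out 1 library gave 1 to 3 calls: 2 without WT 1 (Psmb11 and Hsph1) and 3 without KO 3 (Psmb11, Gdap10 and Nlrp1c-ps). The difference between cell types had 0 calls as reported, 3 with DESeq2 and 145 without a filter; leaving out 1 library gave 0 to 0. Psmb11 ran from -2.89 to -2.44 with 1 library left out, and was called in each of these; with genotype from source name and strain it was -1.10 and not called. The cause of these changes was not tested.

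The title number as a replicate block gave 21 calls (0.103%; 15 shared with DESeq2), 12 in the fit of 12 libraries and 13 with the length trend also taken out. Hsph1 passed with the block (-0.73, edgeR adjusted p 0.0392). Deviations of same-numbered libraries correlated at 0.38, 0.21 and -0.06 for numbers 1 to 3 over 13696 genes. KO 1 and KO 2 correlated best with the WT library of their own number, while KO 3 correlated at -0.06 to 0.04 with the WT libraries. Deviations were taken from the mean of each group of 3, so those of 1 group depend on each other. The value for number 3 therefore cannot decide whether the libraries are paired. The spread between libraries fitted by edgeR (coefficient of variation) was 0.130 without the block and 0.113 with it, at 4 and 2 residual degrees of freedom. The number was left out of the reported fit and kept as an alternative. Of the genes of lowest p described above, Gdap10, Slc6a2, Osr2, Adcy5, Timp1, Plcb2 and Gstm2 also passed with the block (adjusted p 0.0122 to 0.0465) and not in the reported fit. The block calls include Dmp1, which is high in 1 library.

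Over 91 named genes and their alternatives, 90 values passed in the same direction where the reported value did not. Of the rest, 1430 lay less than the gene's pooled SD from the reported difference, and 117 lay at least that far away. Psmb11 kept its sign in all 18. Of 435 alternatives of list medians, 34 moved by at least the pooled SD of the list's mean level. Scaling by library size alone shifted the median of all genes by -0.02 and turned the sign of Hspa14 and of the medians of the ER stress, NF-kB, Fezf2-dependent and dendritic cell lists. Both length alternatives were chosen after seeing the data. At 57970614 or more gene reads a library, counting error bears mainly on genes of few reads, such as Psmb11 in KO (68 to 105 reads).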

Other observations

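Flg, the filaggrin of cornified skin, was at 14.3, 19.8 and 15.5 CPM in KO and at 22.1, 27.9 and 25.3 CPM in WT (log2 difference -0.60), and Mroh2a differed by -0.54; both passed with the title number as a block and with DESeq2, and not in the reported edgeR test. Genes that mark cells past the Aire stage and cornify were below WT in 7 of 10 (median -0.14) in mTEC lo and above in 7 of 10 in mTEC hi (median 0.13), with 0 free of overlap in mTEC lo; the difference between the cell types was not tested for the list. Cell cycle genes were above WT in 14 of 16 in both cell types (medians 0.13 and 0.10). In mTEC lo 1 of the 16 was above without overlap (6.25%, against 10.2% of all genes). With 1 library left out the mTEC lo median ran from 0.03 without KO 1 (10 of 16 above) to 0.24 without WT 2 (14 of 16). It was 0.04 without WT 3 (9 of 16). Ighg1 was at 82.4 CPM in WT 2 and at 20.6 CPM in KO 2.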
